A study of Arabidopsis thaliana with 20 samples.

Results

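Unopened flower buds of the dxo1 mutant of Arabidopsis thaliana held 200 nuclear transcripts whose uncapped 5′ ends were the most abundant relative to their polyadenylated RNA. They were chosen from the dxo1 libraries by the ratio of GMUCT to polyA RNA, both as CPM, the counts of a gene per 1000000 nuclear counts of its library. Of 28775 genes in the tables, 28496 were nuclear, 14839 reached 5 CPM in each of the 4 polyA libraries, and 12815 of these also had Col-0 NAD capture below 2 times Col-0 total RNA (group means plus 0.5 CPM). A rank was given to the 12750 that were listed in GMUCT, and the other 65 were not listed there. The rank used the smaller of the ratios of replicates 1 and 2, and the first 200 genes are the members. GMUCT, polyA RNA and the Col-0 ratio of capture to total RNA therefore chose the members and are given below as a description, without a test.

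GMUCT, genome-wide mapping of uncapped and cleaved transcripts, ligates an adapter to RNA that carries a free 5′ monophosphate and a polyA tail. Such ends arise in plants when an mRNA is decapped, when a microRNA or siRNA guides its cleavage, and as intermediates of the exonucleases that degrade RNA from the 5′ end. The ratio to polyA RNA sets the number of such ends against the abundance of the transcript. DXO1 belongs to the DXO/Rai1 family, which removes noncanonical caps such as NAD from RNA 5′ ends. RDR6, an RNA-dependent RNA polymerase, makes double strands from single-stranded RNA, including RNA that has lost its cap, and these are diced into small interfering RNA (siRNA). In flowers this pathway also makes the trans-acting siRNAs.

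The plants were the laboratory wild type Col-0, the dxo1 mutant and the dxo1 rdr6 double mutant, harvested at about 4 weeks of age under 16 h light and 8 h dark. The labels name no allele, transgene or further treatment. Col-0 and dxo1 gave NAD capture, total RNA and polyA RNA libraries, dxo1 alone gave GMUCT, and small RNA was read in all 3 genotypes, with 2 libraries in each of the 10 groups. Nothing in the labels ties both libraries of a group to different plants, and p-values measure only the spread between libraries, which may be technical. Whole buds were ground, so fewer cells of a type and less RNA per cell cannot be told apart. The depth in counts assigned to genes was 1144896 to 3178702 for NAD capture, 2576448 to 8309456 for total RNA, 10100250 to 16833010 for polyA RNA and 19769742 to 30883266 for GMUCT.

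Several libraries stood apart. AT4G17620, the DXO1 gene, was at 45.3 and 39.6 CPM in Col-0 total RNA, and at 815 and 14.6 CPM in the libraries labelled dxo1 replicate 1 and dxo1 replicate 2. The same contrast between both replicates was seen in polyA RNA (518 and 19.5 CPM, against 49.3 and 49.7 CPM in Col-0), GMUCT (1568 and 20.1 CPM) and small RNA (4618 and 36.3 CPM), but not in NAD capture (28.2 and 28.0 CPM in dxo1, 16.9 and 39.5 CPM in Col-0). Replicate 1 thus showed no loss of counts on this gene outside NAD capture, and the labels do not say whether dxo1 should show one. Every direction for dxo1 below rests on libraries that carry the dxo1 label. RDR6 had 14 to 20 small RNA counts in dxo1 rdr6, which do not measure its transcript. Both dxo1 rdr6 small RNA tables held even counts only, with 0 odd values in 38514 and 43885 non-zero entries, where 65.2 to 76.9% of entries were odd in the other 4 libraries. Small RNA of 25 nt made up 92.1 and 88.0% of their counts, against 9.66 to 13.6% elsewhere, and the dxo1 replicate 2 small RNA library held 137603 counts against 1483736 or more in each of the others. The 23 tapetum and pollen genes used as markers of anthers, the main source of such RNA in buds, were all detected in each long-RNA library. Their summed level was 8860 to 9120 CPM in Col-0 total RNA and 3112 to 3298 CPM in dxo1 total RNA, 4086 to 8229 CPM in Col-0 capture and 3880 to 3989 CPM in dxo1 capture. The lower value in Col-0 capture was that of replicate 1, where 710778 of 1144896 counts were nuclear, against 1544139 of 1807082 in replicate 2. In Col-0 polyA RNA the summed level was 8816 and 9281 CPM. The dxo1 replicates 1 and 2 differed, at 4928 and 2457 CPM in polyA RNA and 3228 and 1682 CPM in GMUCT. The part of these differences in the choice of members and in the results for dxo1 below was not tested.

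All 200 members were protein-coding in the RefSeq annotation of TAIR10.1, and 75 had a symbol there. The smaller GMUCT to polyA ratio ranged from 4.24 to 14.7 over the members with a median of 5.36, against a median of 0.774 over the 12750 ranked genes. The ratio was 10 or more in 12 members, and it was 1 or more in 4596 ranked genes (36.0%). Members differed from the rest in uncapped ends more than in polyA RNA: the median GMUCT level was 183 CPM in members and 30.3 CPM over ranked genes, whereas median dxo1 polyA RNA was 28.8 and 33.9 CPM. Both replicates ranked the genes alike, with a Spearman correlation of 0.959 across ranked genes, which share the libraries and are not independent. Ranking by replicate 1 alone kept 172 of the 200 members and by replicate 2 alone 177. At the edge of the list, AT1G74250, AT5G25580 and AT4G19865 had smaller ratios of 4.25, 4.25 and 4.24, and AT3G49601, UGT74B1 and AT5G58020 just outside it had 4.24, 4.23 and 4.23. No gap separates the members from the genes that follow.

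**Figure D1:**
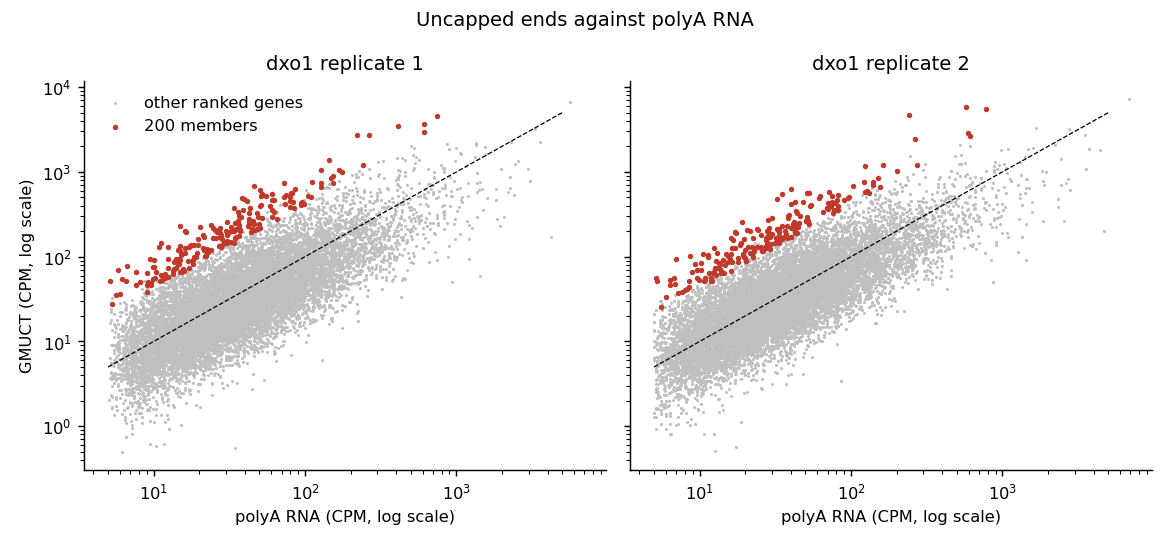
GMUCT against polyA RNA of dxo1 in replicate 1 (left) and replicate 2 (right), both in CPM on log axes, for the 200 members (red) and the other ranked genes (grey). The dashed line marks equal CPM, and the members form the upper edge of the cloud over the whole range of polyA levels.

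The gene of highest rank was AT5G66050, with GMUCT at 680 and 622 CPM in replicates 1 and 2 and dxo1 polyA RNA at 46.4 and 40.1 CPM, ratios of 14.7 and 15.5. Cpn60beta4, a subunit of the plastid chaperonin that folds imported proteins, followed with GMUCT at 227 and 257 CPM over polyA RNA at 14.9 and 19.1 CPM. AT5G46030 had ratios of 12.8 and 15.7. The polyA RNA of these 3 transcripts was below the upper quartile of ranked genes, 68.3 CPM. AT2G44670 was different, with GMUCT at 2688 and 4643 CPM and polyA RNA at 220 and 241 CPM, one of the most abundant sets of uncapped ends among the members. AT4G36470 had ratios of 11.9 and 11.8, AT1G54770 of 11.1 and 14.7, AT4G15030 of 11.95 and 10.86 and AT2G14660 of 12.3 and 10.3. RUB1, a ubiquitin-like protein that is attached to cullins, had GMUCT at 617 and 560 CPM over polyA RNA at 50.8 and 52.6 CPM. SDN3, one of the small RNA degrading nucleases that shorten microRNAs, had GMUCT at 450 and 413 CPM over polyA RNA at 41.6 and 40.2 CPM. Among the first 10, the ratios of both replicates differed most in AT2G44670, at 12.2 and 19.3.

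The members were spread over many functions. Of 19 lists of selected genes, 15 held no member, among them those for tasiRNA loci and targets, ethylene response factors, WRKY factors, nuclear photosynthesis genes, heat shock genes and RNA decay genes. The lists do not cover whole families, so a list without a member does not show that such genes are absent from the members. AT4G40040, a member annotated as histone 3.3, is outside the histone list, which held no member. The member LSM3A, described below, is outside the list of RNA decay genes, and the list of ribosomal proteins is partial as well. The other 4 lists held 5 members. TOE2, an AP2-type repressor of flowering that miR172 targets, was the single member among 61 ranked microRNA targets, with ratios of 8.80 and 11.5. The median smaller ratio of that list was 0.812, close to that of all ranked genes, and the next in it, ARF10, an auxin response factor targeted by miR160, had ratios of 3.454 and 3.798. RPS15A, a protein of the small cytosolic ribosomal subunit, was the member among the 47 ranked genes of the partial ribosomal protein list, with ratios of 10.3 and 9.15, and the list's median was 0.884. MYB111, an activator of flavonol synthesis genes, was the only member among 30 MYB factors, at 4.57 and 6.01. The list of 70 ubiquitin and proteasome genes held UBC18 at 6.29 and 4.57 and UBC11 at 4.47 and 4.26, both ubiquitin-conjugating enzymes.

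Some small families were noticed among the members after their values were seen, and no test applies to them. Of 6 ranked NF-YB genes, histone-fold subunits of the CCAAT-binding factor NF-Y, 3 were members. NF-YB11 had ratios of 12.2 and 10.2, NF-YB1 of 10.5 and 9.20 and NF-YB3 of 5.09 and 4.90. Of 10 ranked flavonol pathway genes, 3 were members: FLS1, the flavonol synthase, with ratios of 8.45 and 10.1, the glycosyltransferase gene UGT78D3 with 4.92 and 4.68, and MYB111. FLS1 carried many uncapped ends, at 3485 and 5811 CPM of GMUCT over 412 and 576 CPM of polyA RNA. Of 19 ranked homeodomain genes, 4 were members. They were HB28, a zinc finger homeodomain protein, with ratios of 8.54 and 6.23, HB16 with 5.21 and 6.27, KNAT3 with 7.07 and 5.14 and HB5 with 4.99 and 4.67. Proteins that act on RNA were also present, with MOS2 at 9.455 and 10.98, FIP37, a subunit of the complex that writes N6-methyladenosine, at 7.60 and 6.70, the oligouridylate-binding protein UBP1A at 6.34 and 6.14, and LSM3A, a subunit of the Sm-like ring, at 5.47 and 4.38.

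Neighbouring genes made up a small part of the members. Only 2 pairs were adjacent among protein-coding genes in TAIR10.1, AT3G11490 with AT3G11500 and AT4G13540 with AT4G13550. Chromosome 4 held 41 members (20.5%) and 15.1% of ranked genes, and chromosome 1 held 44 members and 26.6% of ranked genes.

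In polyA RNA, which the rule used only as a floor for Col-0, the members lay close to all ranked genes in the ratio of dxo1 to Col-0, with a median of 1.06 against 1.02. It ranged from 0.509 in RL3, a RAD-like MYB-domain gene, to 2.39 in AT4G17390. RL3 was at 12.5 and 14.9 CPM in Col-0 polyA RNA and at 6.71 and 6.75 CPM in dxo1. AT4G17390 was at 316 and 322 CPM in Col-0 and at 743 and 781 CPM in dxo1, with no overlap.

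Most members were slightly poorer in total RNA than in polyA RNA. The median ratio of total to polyA RNA in Col-0 was 0.760 for members and 0.869 for ranked genes, and in dxo1 it was 0.735 and 0.834. A handful of members lay far on the other side. The ratio was 5 or more in 5 members, out of 17 such genes among all those ranked. AT2G35750 had 5913 and 6451 CPM in Col-0 total RNA and 9.05 and 9.36 CPM in Col-0 polyA RNA, a ratio of 637. AT3G07860 had 216 and 491 CPM in total RNA and 9.13 and 9.49 CPM in polyA RNA, a ratio of 36.1. AT4G15030 had a ratio of 17.0, AT4G17390 of 7.62 and Cpn60beta4 of 6.40.

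These outliers partly share their position with other genes. In TAIR10.1, AT2G35750, AT3G07860, AT4G17390 and AT5G01350 overlap an annotated small nucleolar RNA (snoRNA) gene, which is 2.0% of the members against 0.29% of ranked genes (37). Of the 17 ranked genes with a ratio of 5 or more, 11 overlap a snoRNA gene. Small nucleolar RNAs guide modification of ribosomal RNA and have no polyA tail. The sources used here do not say whether the counting used strand, and of the snoRNA genes that overlap these members only AT2G35747 is listed in the tables, with 0 counts in all total RNA libraries. Reads of AT2G35750, AT3G07860, AT4G17390 and AT5G01350 in total RNA, capture and small RNA therefore cannot be told apart from those of the snoRNA genes within them. AT5G01350 was not high in total RNA, with a ratio of 0.987, and AT4G15030 and Cpn60beta4 overlap no annotated snoRNA gene.

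**Figure D2:**
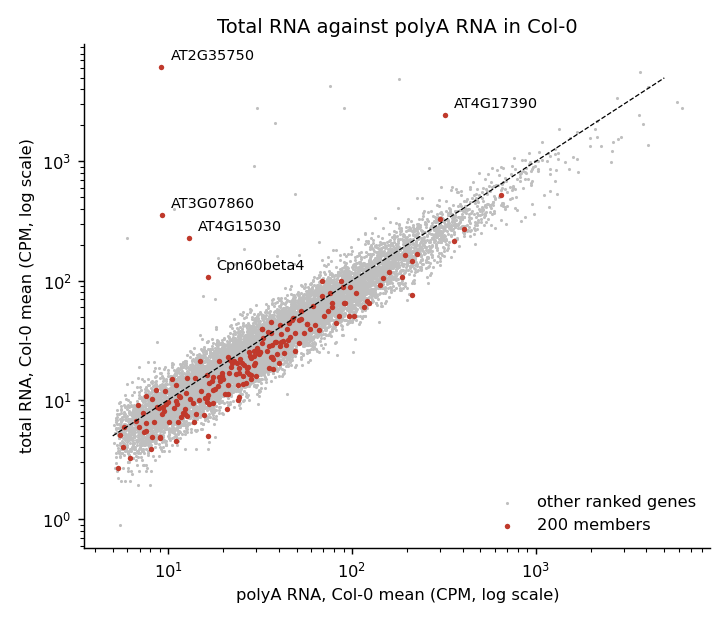
Mean of both Col-0 libraries in total RNA against polyA RNA, in CPM on log axes, for the 200 members (red) and the other ranked genes (grey), with equal CPM as a dashed line. Most members lie on or just below the line, and the 5 named members have 5 or more times as much total as polyA RNA.

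To see whether the members differ in abundance between the genotypes, total RNA of dxo1 was compared with Col-0. Total RNA of dxo1 had no part in the rule, and Col-0 total RNA entered only through the ratio of capture to total RNA. The 8 capture and total RNA libraries were fitted together with edgeR (quasi-likelihood, p adjusted by Benjamini-Hochberg over 17718 genes), and 0 of 200 members were higher and 1 was lower, against 0.406 and 0.581% of all genes tested (0.988% in either direction). The unadjusted p was under 0.05 in 30 members (15% of them, and 14.5% of all genes tested). The median log2 fold change was 0.08 in members and -0.00132 in all genes. The member that fell was AT5G26730, at 30.9 and 17.7 CPM in Col-0 and 5.06 and 7.98 CPM in dxo1. Both dxo1 libraries lay below both Col-0 libraries, with a log2 fold change of -1.83 ± 0.34 (SE) and an adjusted p of 0.0418. The adjusted p was 0.238 with library totals in place of TMM factors. It also rose above the threshold without either dxo1 capture library, without either Col-0 total RNA library and without either dxo1 total RNA library, to between 0.111 and 0.581.

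Several members with a large difference did not pass. NF-YB11 was at 14.7 and 18.9 CPM in Col-0 total RNA and at 28.4 and 54.5 CPM in dxo1 (log2 fold change 1.40 ± 0.43 SE, adjusted p = 0.143). UGT78D3 was at 13.2 and 14.6 CPM in Col-0 and at 26.9 and 38.4 CPM in dxo1 (1.30 ± 0.36, adjusted p = 0.11). NF-YB11 and UGT78D3 were named after their values were seen. FLS1 was at 202 and 228 CPM in Col-0 and at 317 and 363 CPM in dxo1, with 0.70 ± 0.23 and an adjusted p of 0.169. Of the 200 members, 117 had a log2 fold change above 0. The count of calls depended on the libraries that set the spread. With the 4 total RNA libraries alone, 23 members were higher and 6 lower, against 7.18 and 6.9% of 16734 genes tested, and the same counts were found when either Col-0 capture library was left out of the joint fit.

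NAD capture was then compared with total RNA within dxo1. The members were limited to ratios below 2 in Col-0 but not in dxo1, so this is the same measure in libraries the rule did not use. In CPM, the ratio had a median of 1.41 over members and 1.02 over ranked genes, and 139 members lay above the median of ranked genes. In Col-0, where the rule set the limit, these medians were 1.18 and 0.883. In the TMM-scaled fit, 33 members were higher in capture and 20 lower, or 16.5 and 10% of the members, against 18.4 and 18.1% of all genes tested. The median log2 fold change was 0.24 in members and 0.04 in all genes. With library totals in place of TMM factors the median of all genes moved to 0.719 and that of members to 0.926. In that setting 71 members were higher and 5 lower, against 30.2 and 3.78% of all genes. The background was not limited by Col-0 capture as the members were, so these shares are not set against each other. Chosen without that limit, 73 of 199 genes were higher and 10 lower.

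NF-YB1, one of the members highest in capture, was at 32.0 and 40.2 CPM in dxo1 capture and at 9.35 and 6.65 CPM in dxo1 total RNA, a log2 fold change of 1.94 ± 0.31 (SE) with an adjusted p of 0.00132. NF-YB3 was higher as well (1.46 ± 0.42, adjusted p = 0.0207), whereas NF-YB11, at 23.4 and 42.3 CPM in capture and 28.4 and 54.5 CPM in total RNA, did not pass (-0.66 ± 0.41). RL3 was at 17.1 and 13.6 CPM in capture and 3.51 and 3.23 CPM in total RNA (1.96 ± 0.37, adjusted p = 0.00324), and it missed the threshold without dxo1 capture replicate 1 (adjusted p = 0.0596) or dxo1 total RNA replicate 2 (0.0513). AT2G27260 was at 7.80 and 17.2 CPM in capture and 3.12 and 1.33 CPM in total RNA, the largest log2 fold change among the members called higher, at 2.28 ± 0.67 (adjusted p = 0.0234). This low-abundance gene missed the threshold without either dxo1 capture library, either dxo1 total RNA library or Col-0 total RNA replicate 2, with adjusted p between 0.0503 and 0.22. AT5G26730 was at 37.2 and 28.7 CPM in capture (2.03 ± 0.34, adjusted p = 0.00177). Its dxo1 total RNA libraries are the same as those in which it was lower than Col-0, so the results are not independent. UBC18 was also higher (1.68 ± 0.27, adjusted p = 0.00149), at 28.2 and 32.3 CPM in capture and 7.40 and 8.17 CPM in total RNA. In each of these members except NF-YB11, both capture libraries lay above both total RNA libraries.

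The 4 members lowest in capture were also among the 5 with the highest ratio of total to polyA RNA, and the other one, Cpn60beta4, did not pass. AT2G35750 was at 335 and 174 CPM in dxo1 capture and at 5670 and 4591 CPM in dxo1 total RNA, a log2 fold change of -4.58 ± 0.66 (SE) with an adjusted p of 0.000887. AT4G15030 was at 28.6 and 24.4 CPM in capture and 341 and 481 CPM in total RNA (-4.19 ± 0.42, adjusted p = 0.000196). AT3G07860 (-4.07 ± 0.50) and AT4G17390 (-3.54 ± 0.56) followed, and these 4 genes had capture and total RNA libraries far apart. In Col-0 they had ratios of capture to total RNA between 0.122 and 0.287. Next came UGT78D3, at 6.69 and 6.45 CPM in capture and 26.9 and 38.4 CPM in total RNA (-2.56 ± 0.41, adjusted p = 0.0013). AT2G44670, with its many uncapped ends, was at 59.1 and 45.2 CPM in capture and 88.8 and 147 CPM in total RNA (-1.43 ± 0.31, adjusted p = 0.00583). It missed the threshold without dxo1 capture replicate 2 (adjusted p = 0.0632) or dxo1 total RNA replicate 2 (0.0791). AT5G46030, also among the first 10, was on the other side, at 59.4 and 65.2 CPM in capture and 27.7 and 27.2 CPM in total RNA (0.93 ± 0.24, adjusted p = 0.014). It missed the threshold without any 1 of the 4 dxo1 libraries (adjusted p 0.0733 to 0.11). The other 7 genes of the first 10 did not pass.

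Among the listed groups, 6 of 70 microRNA targets were higher in dxo1 capture and 19 lower, 8 of 51 ribosomal protein genes were higher and 10 lower, 9 of 57 MYB factors were higher and 11 lower, and 21 of 85 ubiquitin and proteasome genes were higher and 8 lower, where 18.4% of all genes tested were higher and 18.1% lower. TOE2 did not pass, at 17.5 and 23.7 CPM in capture and 9.74 and 14.1 CPM in total RNA (0.47 ± 0.31), nor did RPS15A (-0.25 ± 0.23). MYB111 was lower (-0.72 ± 0.25, adjusted p = 0.0465). The counts for members changed when single libraries were left out, and so did the share of all genes called. The median log2 fold change then lay between 0.166 and 0.258 in members and between 0.00426 and 0.0608 in all genes. Without both dxo1 libraries numbered 1, 0 of 199 members passed and 0 of 17627 genes did, with 29 members under an unadjusted p of 0.05.

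The limit on Col-0 capture shaped the choice of members, and the following values describe that choice. Among the 14748 genes ranked without the condition, 1998 (13.5%) had Col-0 capture of at least 2 times total RNA, and in the first 200 of that ranking 71 (35.5%) did. The lists with and without the condition share 129 genes. Across the 12750 ranked genes, the smaller GMUCT to polyA ratio and dxo1 capture over total RNA had a Spearman correlation of 0.189. These genes share their libraries, so the value is a description.

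NAD capture of dxo1 was also compared with NAD capture of Col-0. No member was called in either direction, against 0.0677% of all genes higher and 0.689% lower. The unadjusted p was under 0.05 in 25 members (12.5% of them, and 17.7% of all genes tested), and the lowest adjusted p of edgeR's test was 0.0957. DESeq2 called 0 members higher and 2 lower, against 0.254 and 2.28% of all genes. The median log2 fold change was 0.16 in members and -0.01 in all genes, and 121 members were above 0. AT2G35750 had the lowest value, -1.96 ± 0.60 (SE), at 1252 and 354 CPM in Col-0 capture and 335 and 174 CPM in dxo1 capture, with an adjusted p of 0.134. Its Col-0 libraries differed by more than the distance to dxo1. When members were chosen without the capture condition, 0 of 199 were higher and 2 lower. The 2 Col-0 capture libraries varied most of all pairs (chi-square per degree of freedom 33.7), which the joint fit carries into its estimate of the spread. Without Col-0 capture replicate 2 the median log2 fold change was 0.295 in members and 0.0921 in all genes. Without Col-0 capture replicate 1 these medians were 0.124 and 0.0263.

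**Figure D3:**
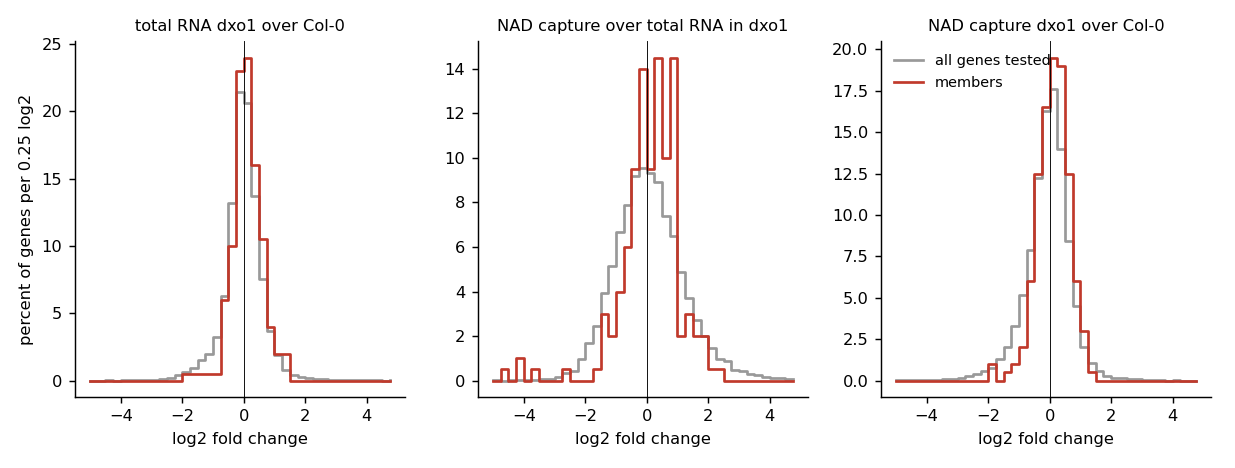
Share of genes per 0.25 log2 units of fold change in the 3 tests on total RNA and NAD capture, for the 200 members (red) and all 17718 genes tested (grey). The members lie close to all genes in both genotype comparisons, and in capture over total RNA of dxo1 they have fewer values below -0.5 and a separate tail near -4.

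Small RNA was read by length and strand on each transcript. All 200 members were in the small RNA tables and each had at least 1 count, with a median of 102 counts over the 6 libraries. Their small RNA was mostly on the forward strand, and 25 nt, the longest length in the tables, was its most frequent single length in each library. In Col-0, 61.7 and 55.1% of member counts were 25 nt, against 12.2 and 9.66% of counts on all transcripts, and 7.87 and 8.93% were 24 nt, against 55.3 and 55.9%. This background of 27162 transcripts was not limited by polyA RNA as the members were. Whether the length profile differs between members and the other ranked genes was not tested. In dxo1, 43.1 and 52.7% of member counts were 25 nt. The 24 nt class is the product of the RNA-directed DNA methylation pathway, and 21 and 22 nt are the lengths of most microRNAs and RDR6-dependent siRNAs. Of member counts, 18.3 and 21.5% were 21 or 22 nt in Col-0 and 34.4 and 27.4% in dxo1, with both dxo1 libraries above both Col-0 libraries. The share on all transcripts moved in the same direction, from 18.5 and 19.8% to 24.4 and 24.7%.

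AT2G35750 dominated the dxo1 rdr6 libraries, where it gave 78.4 and 78.7% of all member counts. Without it, 21 and 22 nt made up 19.9 and 22.6% of member counts in Col-0, 39.0 and 28.0% in dxo1 and 2.12 and 3.97% in dxo1 rdr6, where 25 nt made up 94.9 and 91.5%. The low share in dxo1 rdr6 was shared by all transcripts, at 1.72 and 2.37%. The double mutant and the unusual counts of its tables cannot be told apart.

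**Figure D4:**
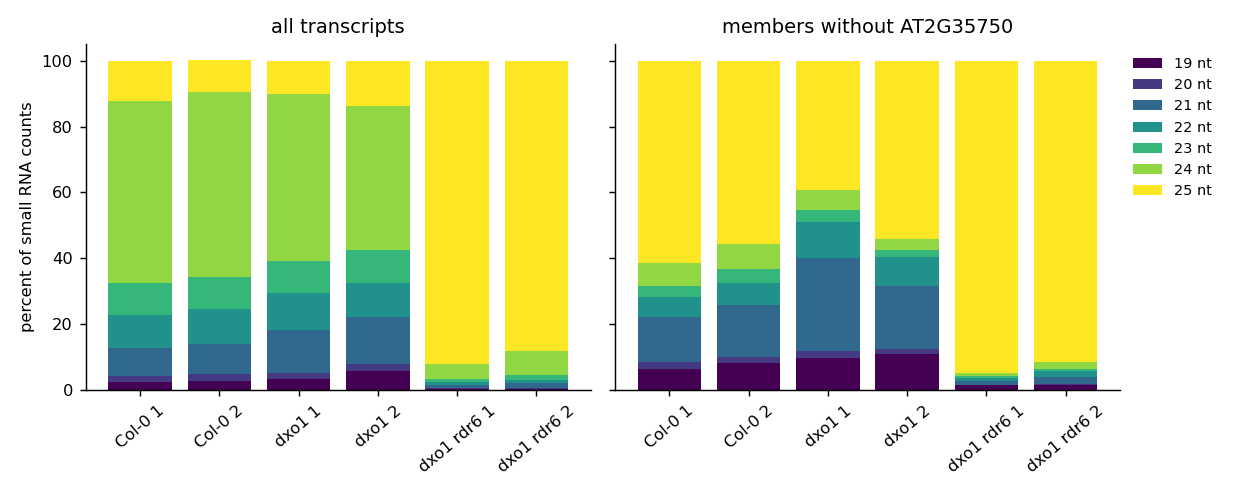
Percent of small RNA counts in each length from 19 to 25 nt in the 6 libraries, for all transcripts (left) and for the members without AT2G35750 (right). In Col-0 and dxo1, 25 nt makes up 39.4 to 61.3% of member counts and 24 nt at most 7.86%, and 25 nt fills both dxo1 rdr6 libraries in either set. All transcripts were not limited by polyA RNA as the members were.

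Of the 200 members, 51 had at least 20 counts of 21 and 22 nt in the Col-0 and dxo1 libraries together. In 43 of these (84.3%) between 20 and 80% of the counts were on the reverse strand, against 81.6% of the 5686 transcripts with as many counts. Small RNA from both strands was thus about as frequent in members as elsewhere. TOE2, a target of miR172, was an exception, with 95.6% of 1249 counts on the reverse strand, 957 of them of 21 nt. Counts of a microRNA on its targets were not told apart from siRNA of the transcript, here and below. In AT1G22030, 59.4% of 646 counts were on the reverse strand, and in AZG1, a purine transporter gene, 43.0% of 582.

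The test of small RNA over all lengths compared dxo1 with Col-0, and 177 of the 200 members passed the filter on low counts. Of these, 5 were higher and 1 lower in dxo1, against 2.3 and 3% of all 15358 transcripts tested (5.31% in either direction). The median log2 fold change was -0.17 in members and -0.31 in all transcripts, and with library totals in place of TMM factors these were 0.669 and 0.527. In that setting 19 members were higher and 0 lower, against 8.59 and 1.17% of all transcripts. AT1G22030 rose most, from 22.24 and 11.99 small RNA CPM in Col-0 to 162 and 254 CPM in dxo1 (log2 fold change 2.42 ± 0.47 SE, adjusted p = 0.00202). AZG1 rose from 19.6 and 21.5 CPM to 143 and 174 CPM (1.80 ± 0.46, adjusted p = 0.019). Of these dxo1 counts, 555 of 586 and 33 of 35 in AT1G22030 and 483 of 520 and 23 of 24 in AZG1 were 21 or 22 nt. AT4G39840 (1.93 ± 0.40, adjusted p = 0.00366) rose from 5.39 and 7.10 CPM to 48.8 and 29.1 CPM, the last from 4 counts. AT2G44310 (1.74 ± 0.36, adjusted p = 0.0039) rose from 6.07 and 7.58 CPM to 43.0 and 50.9 CPM.

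AT4G15030, the seventh by rank, rose from 4.04 and 4.16 CPM to 21.2 and 43.6 CPM (1.64 ± 0.43, adjusted p = 0.0208), but only 1 of its 77 counts in dxo1 replicate 1 was 21 or 22 nt and 38 were 25 nt. The member that fell was AT2G23985, from 22.9 and 28.9 CPM to 16.6 and 14.5 CPM (-1.50 ± 0.36, adjusted p = 0.0108). DESeq2 called AT1G22030 and AZG1 alone among these 6, with adjusted p of 0.109 to 0.205 for the other 4, and AT2G23985 was also lost with library totals (0.377). In all 6 members both dxo1 libraries lay on the same side of both Col-0 libraries. None of the 6 passed without either Col-0 small RNA library (adjusted p 0.103 to 0.61). AT4G39840 (0.926), AT2G44310 (0.43), AT4G15030 (0.301) and AZG1 (0.131) also missed the threshold without dxo1 replicate 1, which left dxo1 with the shallow library. None of the 5 members that rose in small RNA was called in total RNA. That fit called 0.988% of all genes, so a missing call does not show an unchanged transcript. In total RNA, AT1G22030 was at 7.06 and 7.92 CPM in Col-0 and 10.1 and 16.5 CPM in dxo1 (0.93 ± 0.39, adjusted p = 0.3). AZG1 was at 26.5 and 14.6 CPM in Col-0 and 25.7 and 18.99 CPM in dxo1 (0.09 ± 0.36).

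With 21 and 22 nt alone, 17 members and 1928 transcripts passed the filter, so a member could enter through the group in which it is high. In this fit 9 members were higher and 1 lower in dxo1, against 20.7 and 33.6% of the transcripts (54.3% in either direction). AT2G44310 rose from 3.65 and 4.95 to 128 and 58.7 CPM, here counted per total of 21 and 22 nt, the last from 2 counts (3.61 ± 0.76 SE, adjusted p = 0.00246). AT4G39840 (3.09), AT1G22030 (2.68), AZG1 (2.08) and HB5 (2.02) were higher too, with adjusted p up to 0.0125. AT2G44670 rose from 7.29 and 12.4 to 108 and 176 CPM (2.50 ± 0.66, adjusted p = 0.00785), with 18.4% of its 114 counts on the reverse strand. TOE2 was the one that fell, from 649 and 780 to 477 and 558 CPM (-1.48 ± 0.36, adjusted p = 0.00542). With all lengths from 19 to 24 nt, 16 of 35 members were higher and 1 lower, against 16.2 and 7.79% of transcripts. In TOE2 the groups did not overlap, but the TMM factors of this fit place the median of all transcripts at -0.675 and that of the members tested at 1.49.

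**Figure D5:**
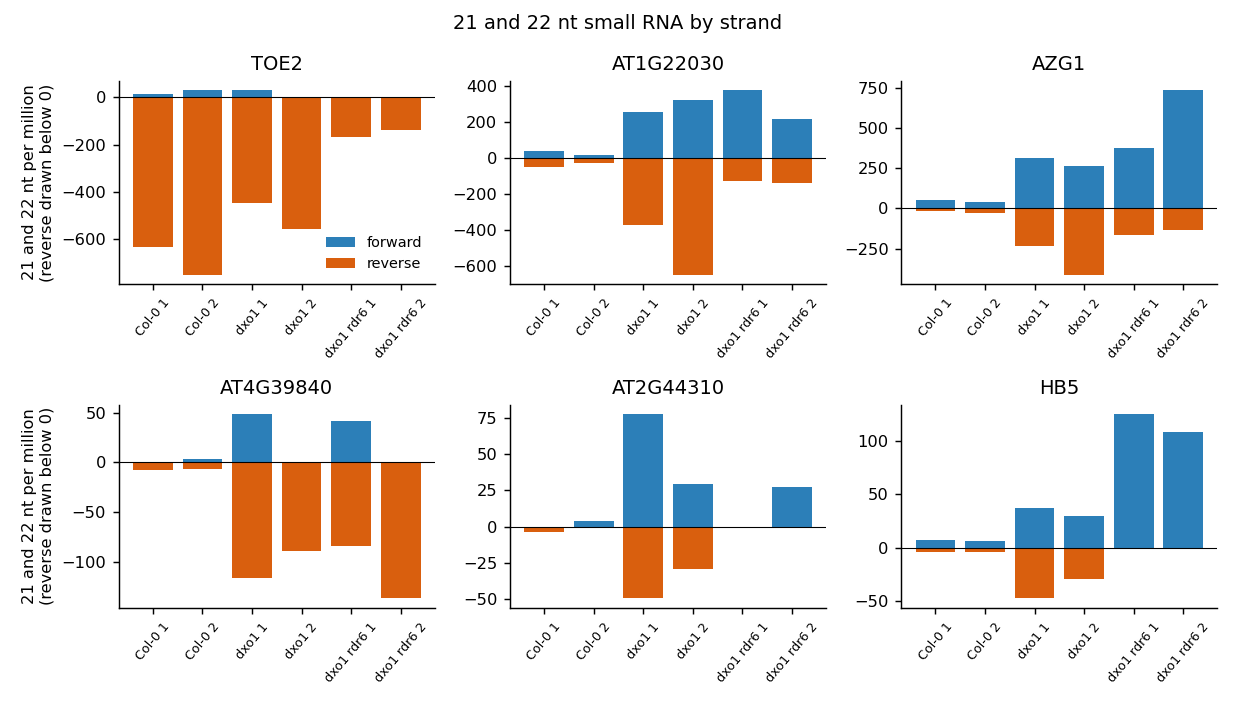
CPM of 21 and 22 nt, per library total of these lengths, in each small RNA library for TOE2, AT1G22030, AZG1, AT4G39840, AT2G44310 and HB5, with the forward strand drawn above 0 and the reverse strand below. TOE2 has reverse-strand small RNA in all 6 libraries, and the other 5 have more in both dxo1 libraries than in both Col-0 libraries.

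In dxo1 rdr6 over dxo1, 1 of 177 members was higher and 30 were lower, against 12.9 and 23.3% of all transcripts tested (36.2% in either direction). The members' median log2 fold change was -0.31, and that of all transcripts was 0.09. This comparison shares the dxo1 libraries with the one before. It also carries the 25 nt class and the even counts of dxo1 rdr6, and 2 fits chosen after the data were seen changed these. With 19 to 24 nt alone, 3 of 35 members were higher and 9 lower, against 8.14 and 29.9% of transcripts. With the dxo1 rdr6 counts divided by 2, 2 of 134 members were higher and 45 lower, against 19.4 and 32.4% of 11059 transcripts. TOE2 fell most, from 136 and 189 CPM in dxo1 to 4.31 and 4.51 CPM in dxo1 rdr6 (-5.02 ± 0.66 SE, adjusted p = 2.28e-06), and Col-0 stood at 134 and 173 CPM. Its log2 fold change was -1.69 ± 0.45 among 21 and 22 nt alone (adjusted p = 0.0161), where 1 of 17 members was higher and 1 lower, against 9.23 and 18.5% of transcripts. AT5G26730 fell from 19.03 and 123.5 CPM to 2.15 and 1.29 CPM (-4.28 ± 0.53, adjusted p = 1.19e-06). AT1G22030 fell from 162 and 254 CPM to 18.0 and 13.5 CPM (-3.54 ± 0.47, adjusted p = 2.94e-06), which lies within its Col-0 range. Among 21 and 22 nt alone it was at 627 and 969 CPM in dxo1 and at 501 and 353 in dxo1 rdr6, a difference that did not pass (-0.76 ± 0.41, adjusted p = 0.177).

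RL3 fell from 7.72 and 14.5 CPM to 0 and 1.29 CPM (-3.72 ± 0.78, adjusted p = 0.000509), and missed the threshold without dxo1 replicate 1 (adjusted p = 0.229). Its dxo1 values came from 28 and 2 counts. AZG1 (-2.36), HB28 (-2.21), MYB111 (-2.13), AT2G44310 (-1.87), NF-YB11 (-1.86), MOS2 (-1.58), HB5 (-1.50) and AT4G39840 (-1.34) were among the others that fell, with adjusted p up to 0.0217. With 21 and 22 nt alone, AZG1 (0.35), HB5 (0.52) and AT4G39840 (-0.21) did not pass (adjusted p 0.514 to 0.772). HB28 (-1.73), MYB111 (-1.18) and AT2G44310 (-2.75) did not pass there either (0.0572 to 0.327). NF-YB11 and MOS2 were not tested in these lengths. AT5G66050 (-1.23, adjusted p = 0.0397) and SDN3 (-1.08, adjusted p = 0.0435) fell narrowly and missed the threshold without either Col-0 library, without dxo1 replicate 1 and without dxo1 rdr6 replicate 2 (adjusted p 0.0654 to 0.827). Among microRNA targets 35 of 70 were lower and 4 higher, and among ribosomal protein genes 5 of 49 were lower and 19 higher. For MYB factors 20 of 39 were lower and 1 higher, and for ubiquitin and proteasome genes 7 of 82 and 26, where 23.3% of all transcripts tested were lower and 12.9% higher.

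AT2G35750 was the only member that rose in this comparison, from 619 and 640 CPM in dxo1 to 9053 and 7601 CPM in dxo1 rdr6 (3.81 ± 0.86, adjusted p = 0.00106). Of its counts in dxo1 rdr6, 25120 of 25220 and 23534 of 23586 were 25 nt. With 19 to 24 nt alone, a choice made after the data were seen, it did not rise (-0.51, adjusted p = 0.393), and in that fit 3 of 35 members tested were higher and 9 lower, against 8.14 and 29.9% of 4569 transcripts. By the mean CPM of the 3 genotypes FLS1 came after AT2G35750, though TOE2 was higher in Col-0. FLS1 was at 65.4 and 68.5 CPM in Col-0, 97.7 and 291 CPM in dxo1 and 178 and 166 CPM in dxo1 rdr6, and it passed in neither test over all lengths. Its 21 and 22 nt level was 62.1 and 88.1 CPM in dxo1 and 250.5 and 190.2 CPM in dxo1 rdr6, called higher (1.73 ± 0.44, adjusted p = 0.0134) on 12 and 14 counts in dxo1 rdr6. AT4G17390 was at 69.5 and 204 CPM in dxo1 and 116 and 103 CPM in dxo1 rdr6 and did not pass (0.11 ± 0.48). AT4G40040, listed as histone 3.3, was at 94.1 and 138 CPM and 89.0 and 78.6 CPM and did not pass either (-0.31 ± 0.49).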

How the data were processed

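Both kinds of deposited table hold unnormalized counts, by gene for the long RNA and, for small RNA, by transcript model, with strand and length (19 to 25 nt) apart. Per the submitters' processing notes, cutadapt, STAR 2.4.2a, HTSeq and TAIR10 were used, without settings. The tool behind the small RNA tables and any use of strand in counting are not given in these sources. HTSeq's special entries, left out here, held 90.8 to 96.1% of reads in capture and total RNA and 18.2 to 28.3% in polyA RNA and GMUCT. Multiply matching reads are among them, and near-identical copies (ribosomal proteins, histones) are therefore counted incompletely.

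Levels are CPM on nuclear counts. Small RNA CPM is per library total, and each gene had 1 transcript model in the small RNA counts. Counts were tested in R 4.3.3 with edgeR 4.0.16: filterByExpr (minimum count 10), TMM factors, quasi-likelihood F test, two-sided, Benjamini-Hochberg adjustment over all features tested, threshold 0.05. The 8 capture and total RNA libraries formed 1 fit and the 6 small RNA libraries another. The first fit took all genes, so its library totals also held counts outside the nuclear genes. Nuclear counts were 2692009 of 3178702 and 1394818 of 1644104 in dxo1 capture, and 710778 of 1144896 and 1544139 of 1807082 in Col-0 capture. In dxo1 total RNA they were 2568102 of 4100829 and 5264667 of 8309456. The part of this in the results with library totals was not tested. The fitting procedure was first checked on simulated counts, and every reported value is from the deposited counts. SE was taken as the size of the log2 fold change divided by the root of F. With 2 libraries per group no permutation test could reach the threshold. Replicate libraries were checked not to be copies (chi-square per degree of freedom 2.26 to 33.7). DESeq2 1.42.0 was an alternative.

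Members, gene lists and tests were chosen with earlier results of these data known. Named genes were AT4G17620 and RDR6, the first 10 by rank, up to 4 members per list, the 4 largest called changes in each direction per comparison with groups apart, ranks 198 to 203 and the 6 members with most small RNA. Other genes were named after their values were seen. Names and neighbours are from RefSeq's TAIR10.1, which matched 28009 of 28496 nuclear genes.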

Additional observations from a re-analysis of the deposited data

How the results depend on the processing

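Counts of members called, higher and lower, changed by over 1.5 times in some settings, and the cause was not tested unless stated. In most refits the share of all features called changed too, so these counts alone show nothing particular to members. With no filter on low counts, for example, 1.82 and 2.6% of all genes were called in total RNA and 1.42 and 4.8% in capture of dxo1 over Col-0. Total RNA of dxo1 over Col-0 (0 and 1 as reported) gave 0 lower with library totals alone, with the replicate block and without both dxo1 libraries numbered 1, 1 and 2 with DESeq2, 8 and 2 with no filter on low counts, and 23 and 6 with total RNA libraries alone. Capture over total RNA in dxo1 (33 and 20) gave 71 and 5 with library totals alone, 21 and 13 with DESeq2, and 0 and 0 without both dxo1 libraries numbered 1, where 1 library is left in each dxo1 group and is assumed to vary like the others. Capture of dxo1 over Col-0 (0 and 0) gave 2 lower with DESeq2 and 3 and 5 with no filter. Small RNA of dxo1 over Col-0 (5 and 1) gave 19 and 0 with library totals alone, 2 and 0 with DESeq2 and 2 and 0 with the replicate block. It gave 9 higher in 21 and 22 nt, 0 and 0 in 24 nt, and 2 lower for members with polyA RNA of at least 10 CPM. Small RNA of dxo1 rdr6 over dxo1 (1 and 30) gave 2 higher with DESeq2 size factors and with library totals alone, 15 lower with DESeq2, 1 lower in 21 and 22 nt and in 24 nt, and 0 higher for members of at least 10 CPM. Members chosen without the capture condition, which are partly other genes, gave 2 lower in total RNA, 73 and 10 in capture over total RNA, 2 lower in capture of dxo1 over Col-0, 0 lower in small RNA of dxo1 and 4 higher in dxo1 rdr6. Fewer transcripts pass the filter when lengths are left out. Chosen after the data were seen, 19 to 24 nt gave 16 higher in dxo1 and 3 and 9 in dxo1 rdr6, and halving the even dxo1 rdr6 counts gave 15 higher in dxo1 and 2 higher in dxo1 rdr6.

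Leaving out 1 library at a time, which leaves a lone sample assumed to vary like the other groups, gave 0 to 23 higher and 0 to 6 lower in total RNA, 11 to 56 and 6 to 34 in capture over total RNA, 0 to 17 and 0 to 9 in capture of dxo1 over Col-0, 0 to 15 and 0 to 2 in small RNA of dxo1, and 1 to 4 and 8 to 48 in dxo1 rdr6. The share of all features called also changed as single libraries were left out. AT2G35750 reversed in dxo1 rdr6 over dxo1, to -0.38 in 24 nt and -0.51 in 19 to 24 nt. Over the named genes that were called, 249 of 330 alternative values kept direction and call, 79 lost the call and 2 reversed. Within each of the 2 fits, same-numbered libraries did not deviate together over all features tested (correlation of replicate differences -0.0583 to 0.0476). The tests therefore did not take the numbers as pairs, although AT4G17620 was high in dxo1 replicate 1 of 4 assays. PolyA RNA and GMUCT, which the rule paired by number, were not part of this check, nor was long RNA set against small RNA. With the replicate block, dxo1 capture over total RNA had 29 higher and 19 lower and dxo1 rdr6 over dxo1 1 and 24, and AT5G26730 lost its call in total RNA (adjusted p = 0.0671), as did AT2G44310, AT4G39840, AT2G23985 and AZG1 in small RNA of dxo1 (0.0536 to 0.114). Depth limits dxo1 small RNA replicate 2 most, where members such as RL3 rest on 2 counts.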
